A study of Rattus norvegicus with 36 samples.

Results

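The NR4A genes encode the orphan nuclear receptors Nr4a1 (also called Nur77 or NGFI-B), Nr4a2 (Nurr1) and Nr4a3 (NOR1), and their transcripts were followed here in the nucleus accumbens of rats conditioned with cocaine. The members were chosen by Ensembl ID and are ENSRNOG00000007607 (Nr4a1), ENSRNOG00000005600 (Nr4a2) and ENSRNOG00000005964 (Nr4a3), 3 of the 31546 gene IDs in the count tables. The count tables hold no gene names, so the pairing of these IDs with symbols comes from the rule that defines the family. All 3 members passed the filter on low counts, as did 16029 IDs in all. The family was selected on the levels in the Vulnerable, Non Vulnerable and Saline rats compared below, with those values already known. Levels, fold changes and counts of members called are therefore a description of these 9 rats and were not used as a test of the family.

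NR4A proteins are transcription factors with the fold of nuclear receptors, but they act without a known hormone: their activity is set mainly by how much of the protein a cell makes. Their genes belong to the immediate early genes, which neurons switch on within minutes of calcium entry or of a rise in cAMP, without needing new protein first. In the striatum, dopamine acting at D1-type receptors is a classical input of that kind. Nr4a1 binds DNA as a monomer or a dimer and, like Nr4a2, can pair with the retinoid X receptor, whereas Nr4a3 does not share that pairing. Nr4a2 is also required for the development and upkeep of midbrain dopamine neurons and is a well-known marker of the claustrum.

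Sprague-Dawley rats of 8 weeks went through conditioned place preference, in which a drug is paired with a compartment and the time the animal later spends there is recorded. The cocaine groups, labelled Vulnerable and Non Vulnerable, received 4 injections of cocaine (20 mg/kg, intraperitoneal), alternating with saline given 6 h apart in the other compartment, in 20-min sessions. The Saline rats, labelled with 4 injections of physiological serum, went through the same alternation, and the test followed on the next day. The series groups rats by whether they expressed the preference, but the sample labels give only the phenotype words, which are used here as names. Each group held 3 rats, and every rat had 4 technical replicates, a to d, which were summed. The sample labels name them only as technical replicates. Each is called a library below, whether it was prepared separately or not. The labels and protocols used here do not state the time from the test to tissue collection, and for the extraction the protocol names the caudate putamen beside the accumbens.

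Total counts ranged from 41213813 to 64081679 per rat and from 10160424 to 16297870 per library. Levels are given as CPM, in which counts are scaled to a common total after adjustment of the rat totals by the TMM method. CPM takes no account of transcript length, so levels are compared between rats and never between genes. Over all genes kept, Non Vulnerable rats 2 and 3 had a root mean square log2 difference of 0.44 from each other and of 0.54 to 0.82 from the other 7 rats. Non Vulnerable rat 1 was at 0.54 and 0.66 from these 2 rats of its group and at 0.49, 0.49 and 0.55 from the Saline rats. The Vulnerable rats were not set apart from the Saline rats either. Vulnerable rats 1 and 2 were at 0.66 from each other and at 0.45 to 0.56 from the Saline rats. Vulnerable rat 3 was at 0.40 and 0.45 from these 2 rats and at 0.42, 0.38 and 0.35 from Saline rats 1 to 3. The fold changes that use Non Vulnerable rat 1, and the shares of genes beyond them, are given with and without it. Ranges over the omission of each of the 9 rats are also given. Whether the samples held the labelled tissue could not be checked on marker genes, because none of the IDs could be paired with a symbol.

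RefSeq promoter sequence of assembly GRCr8 was at hand for 2 of the 3 members, Nr4a1 and Nr4a2. The 250 bases before the listed start of each are shown. Whether these starts were the ones used in this tissue, and whether the motifs bear on the levels, was not tested. Both sequences are written 5′ to 3′ on the strand of the gene. Capitals mark matches to the core of the cAMP response element (TGACG, or CGTCA when read on the other strand) and to the longer TGCGTCA that contains it.
Nr4a1, chr7:134259888-134260137, plus strand: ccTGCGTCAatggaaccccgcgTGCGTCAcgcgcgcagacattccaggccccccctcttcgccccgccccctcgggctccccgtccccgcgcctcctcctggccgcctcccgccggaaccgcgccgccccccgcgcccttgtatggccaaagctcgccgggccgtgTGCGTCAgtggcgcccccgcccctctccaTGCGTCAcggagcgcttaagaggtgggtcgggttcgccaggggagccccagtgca
Nr4a2, chr3:62104888-62105137, minus strand: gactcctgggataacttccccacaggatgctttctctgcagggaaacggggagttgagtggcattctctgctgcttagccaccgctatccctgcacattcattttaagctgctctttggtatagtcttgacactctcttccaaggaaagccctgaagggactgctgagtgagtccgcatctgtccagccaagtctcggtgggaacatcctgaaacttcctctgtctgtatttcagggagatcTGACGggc

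The Nr4a1 window held TGCGTCA 4 times, all on the strand of the gene, at -248 to -242, -228 to -222, -84 to -78 and -55 to -49 counted from the start. TGCGTCA occurred on either strand in 1.66% of 33469 windows of the same length, and only 1 window, that of Nr4a1, held it 3 or more times. Its core, which every one of these matches contains, was present 4 or more times in 0.173% of the windows and at least once in 18.2%. The Nr4a2 window held the core once, at -8 to -4, and no TGCGTCA. Neither window held the full cAMP response element TGACGTCA (in 1.59% of windows), the NR4A monomer site AAAGGTCA (1.24%), the TATA box TATAAA (12.9%) or the CArG box of serum response factor (1.5%). The GC box GGGCGG was matched 3 times in the Nr4a1 window, where G and C made up 74.8% of the bases. It was not matched in the Nr4a2 window, where they made up 52.0%. The share of windows with at least 1 GC box was 30.5%, and the median content of G and C over all windows was 51.2%. All motifs were searched on both strands, and a match describes these letters only, not binding.

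Nr4a1 transcripts were most abundant in the Vulnerable rats. The level was 56.0, 73.6 and 55.4 CPM in Vulnerable rats 1 to 3, from 2886, 3748 and 3713 counts. In Non Vulnerable rats 1 to 3 it was 39.7, 33.7 and 27.1 CPM, and in Saline rats 1 to 3 it was 25.7, 27.0 and 23.0 CPM. Every Vulnerable rat thus lay above all 6 other rats, with a gap between the lowest Vulnerable rat and the highest Non Vulnerable rat. In tissue of mixed cells a lower level can come from fewer cells of a type or from less RNA per cell, which cannot be told apart here.

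By group, Nr4a1 averaged 61.7 ± 10.4 CPM in Vulnerable, 33.5 ± 6.30 in Non Vulnerable and 25.2 ± 2.00 in Saline rats (SD, n = 3). The order was Vulnerable, Non Vulnerable, Saline. Vulnerable rats exceeded Non Vulnerable rats by 28.2 CPM and Saline rats by 36.5 CPM, more than the SD of any group. The neighbours at the low end stood closer: Non Vulnerable rats exceeded Saline rats by 8.29 CPM, against SDs of 6.30 and 2.00. The lowest Non Vulnerable rat, at 27.1 CPM, was level with the highest Saline rat, at 27.0 CPM. With CPM over the plain total these became 26.1 and 27.3 CPM, so whether these groups overlap depended on the scaling. They also overlapped with median-of-ratios scaled totals. The fitted log2 fold change was 1.29 (SE 0.158) for Vulnerable against Saline, or 2.44-fold. It was 0.88 (SE 0.156) for Vulnerable against Non Vulnerable, or 1.84-fold, and 0.41 (SE 0.157) for Non Vulnerable against Saline, or 1.33-fold. Without Non Vulnerable rat 1 the latter values were 1.03 and 0.25, and without Non Vulnerable rat 3 they were 0.75 and 0.54. Without Vulnerable rat 2, Vulnerable against Non Vulnerable rats gave 0.73.

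Nr4a3 was also highest in Vulnerable rats, but its levels were more scattered. It stood at 30.2, 50.8 and 39.7 CPM in Vulnerable rats 1 to 3. Non Vulnerable rats 1 to 3 had 17.4, 19.2 and 9.20 CPM. All Vulnerable rats lay above all Non Vulnerable rats. Saline rats 1 to 3 had 9.34, 20.8 and 33.3 CPM, a spread that reached from the lowest Non Vulnerable rat into the Vulnerable range. Saline rat 3 was higher than Vulnerable rat 1, while 8 of the 9 pairings of a Vulnerable with a Saline rat had the Vulnerable rat higher.

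The group means of Nr4a3 were 40.2 ± 10.3 CPM for Vulnerable rats, 15.3 ± 5.34 CPM for Non Vulnerable rats and 21.2 ± 11.99 CPM for Saline rats (SD, n = 3). Vulnerable rats thus came first, as for Nr4a1, but Saline and Non Vulnerable rats stood in the opposite order. The difference between Non Vulnerable and Saline rats, -5.87 CPM, was smaller than the SD of the Saline rats. Vulnerable rats exceeded Non Vulnerable rats by 24.9 CPM and Saline rats by 19.1 CPM. The log2 fold change was 1.39 (SE 0.437) for Vulnerable against Non Vulnerable, or 2.63-fold. It was 0.93 (SE 0.431) for Vulnerable against Saline, or 1.90-fold, and -0.47 (SE 0.434) for Non Vulnerable against Saline. Saline rat 3 carried much of the last value, which was 0.01 without it and -0.87 without Saline rat 1. Without Saline rat 3, Vulnerable against Saline rats gave 1.45, and without Saline rat 1 it gave 0.57. Without Non Vulnerable rat 1, Vulnerable against Non Vulnerable rats gave 1.51 and Non Vulnerable against Saline rats -0.59. Without Non Vulnerable rat 3 these were 1.13 and -0.21. Without Vulnerable rat 2, Vulnerable against Non Vulnerable rats gave 1.19.

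Nr4a2 did not follow the groups. It stood at 12.8, 3.40 and 7.96 CPM in Vulnerable rats 1 to 3. Non Vulnerable rats 1 to 3 had 3.03, 7.09 and 11.98 CPM, and Saline rats 1 to 3 had 5.40, 2.59 and 13.5 CPM. Each group held a low rat and a high rat, from 2.59 to 3.40 CPM and from 11.98 to 13.5 CPM, so the ranges of all 3 groups overlapped along most of their length.

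The Nr4a2 means were 8.07 ± 4.72 CPM in Vulnerable, 7.37 ± 4.48 in Non Vulnerable and 7.17 ± 5.68 in Saline rats (SD, n = 3). No pair of groups differed by more than 0.895 CPM, a fraction of any SD. The log2 fold changes were 0.13 (SE 0.687) for Vulnerable against Non Vulnerable, 0.17 (SE 0.686) for Vulnerable against Saline and 0.04 (SE 0.689) for Non Vulnerable against Saline. With errors this wide, changes as large as those of Nr4a1 would lie within about 2 SE of these values, so a difference of that size was not detectable for Nr4a2. Without Non Vulnerable rat 1, Vulnerable against Non Vulnerable rats gave -0.22 and Non Vulnerable against Saline rats gave 0.38.

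**Figure D1:**
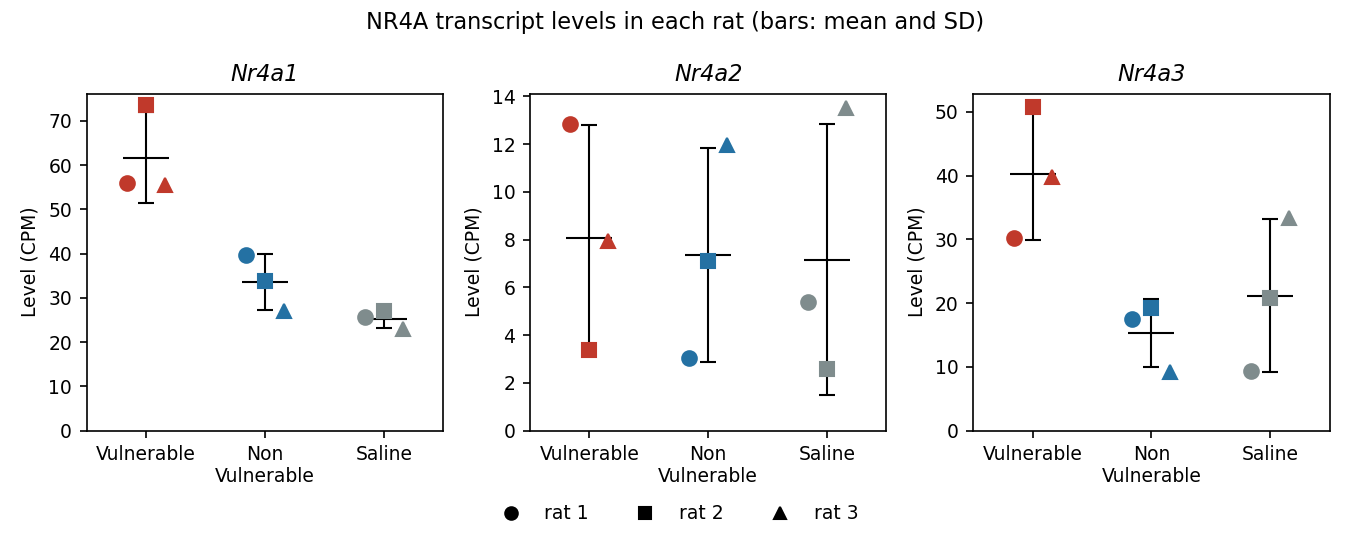
Level of each NR4A gene in CPM (vertical axis, from 0, with its own scale per gene) in the 9 rats by group. Symbols mark rat numbers within a group, and bars give the mean and SD of 3 rats. Nr4a1 in Vulnerable rats (55.4 to 73.6 CPM) lies above all other rats, Nr4a3 separates Vulnerable from Non Vulnerable rats, and Nr4a2 spreads from about 3 to 13 CPM in every group.

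Set beside all 16029 genes tested, the members differed in how unusual their fold changes were. For Vulnerable against Saline rats, 0.249% of genes had a higher log2 fold change than Nr4a1, 0.873% than Nr4a3 and 16.2% than Nr4a2. For Vulnerable against Non Vulnerable rats, where many genes differed, the shares were 6.18% for Nr4a1, 1.60% for Nr4a3 and 35.9% for Nr4a2. For Non Vulnerable against Saline rats they were 11.3%, 88.1% and 48.5% for Nr4a1, Nr4a3 and Nr4a2. The median log2 fold change of all genes was -0.04, 0.00 and 0.02 in Vulnerable against Non Vulnerable, Vulnerable against Saline and Non Vulnerable against Saline rats. These comparisons share groups of rats, so the values of a member are not independent of each other.

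These shares moved with the rats kept. For Vulnerable against Saline rats, the share above Nr4a1 ran from 0.111% without Vulnerable rat 1 to 1.296% without Vulnerable rat 2, and was 1.215% without Saline rat 3 and 0.414% without Vulnerable rat 3. For Nr4a3 it ran from 0.321% without Vulnerable rat 1 to 2.83% without Vulnerable rat 2, and was 2.61% without Saline rat 1 and 1.44% without Vulnerable rat 3. Both members thus stayed among the highest few percent of genes in all 9 fits of this comparison. The fits without a Non Vulnerable rat keep all compared rats, so only the other fits bear on this. The share above Nr4a2 ran from 1.89% without Saline rat 3 to 85.9% without Vulnerable rat 1, and was 4.39% without Vulnerable rat 2, 52.7% without Saline rat 1 and 85.2% without Saline rat 2.

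For Vulnerable against Non Vulnerable rats, the share above Nr4a1 stayed between 4.66% and 8.98%, and was 6.12% without Non Vulnerable rat 1. For Nr4a3 it ran from 0.846% without Vulnerable rat 1 to 3.32% without Non Vulnerable rat 3, and was 3.29% without Vulnerable rat 2. On omission of Non Vulnerable rat 1 it was 2.45%. For Nr4a2 it ran from 10.2% without Non Vulnerable rat 3 to 74.6% without Vulnerable rat 1, and was 67.4% without Non Vulnerable rat 1 and 15.8% without Vulnerable rat 2. The place of Nr4a2 among all genes thus depended on the rats kept. For Non Vulnerable against Saline rats, the share above Nr4a1 was 24.15% and 4.63% on omission of Non Vulnerable rats 1 and 3, and 17.7% on omission of Saline rat 3. For Nr4a3 omission of Non Vulnerable rat 1 gave 88.2% and that of Saline rat 3 gave 48.65%. For Nr4a2 omission of Non Vulnerable rats 1 and 3 gave 15.1% and 89.1%, and that of Saline rats 2 and 3 gave 83.5% and 3.84%.

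**Figure D2:**
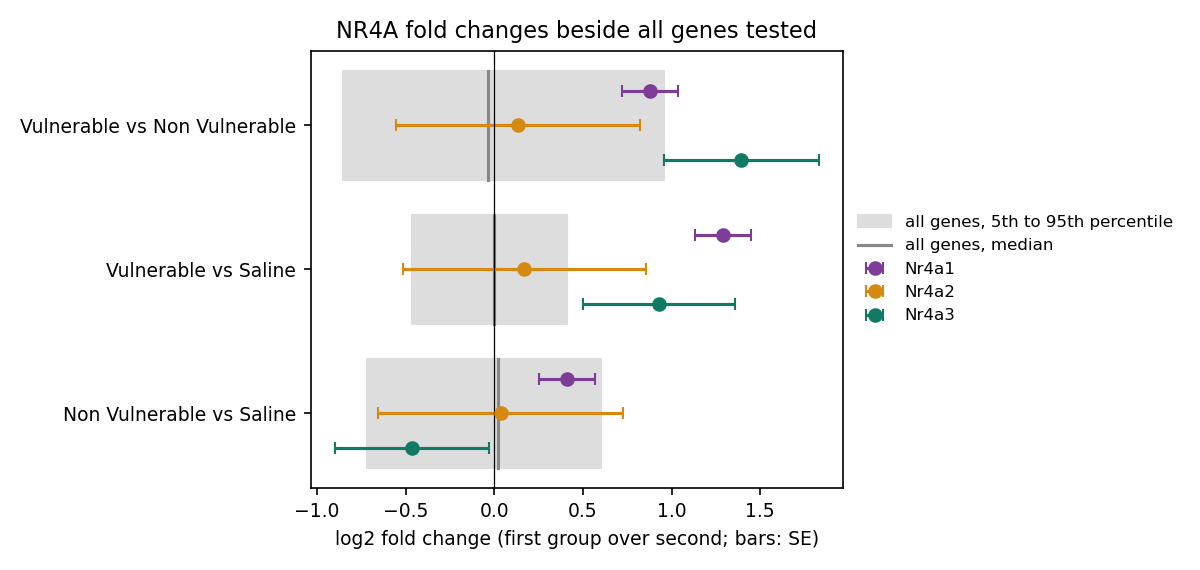
Log2 fold change of each NR4A gene (horizontal axis; points with SE bars) in the 3 comparisons of groups, with the 5th to 95th percentile (grey) and median of all 16029 genes tested. Nr4a1 and Nr4a3 lie outside the grey range for Vulnerable against Saline rats (1.29 and 0.93), Nr4a3 also for Vulnerable against Non Vulnerable rats (1.39), and Nr4a2 lies within it throughout.

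In Vulnerable against Non Vulnerable rats, 2 of the 3 members, Nr4a1 and Nr4a3, were called (edgeR quasi-likelihood test, adjusted p under 0.05 over all genes), where 31.5% of all genes were called. Groups did not overlap for the same members, each with every Vulnerable rat above every Non Vulnerable rat, as for 21.8% of all genes. The call of Nr4a1 was present in all 9 fits with a rat left out. That of Nr4a3 ended in 6 of them: without Vulnerable rat 2 or 3, Saline rat 2, or Non Vulnerable rat 1, 2 or 3, at log2 fold changes of 1.19, 1.44, 1.39, 1.51, 1.59 and 1.13. It also ended without the low-count filter (1.40) and with the rat number as a block (1.33).

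In Vulnerable against Saline rats, 0 of the 3 members were called with edgeR, which called 0.0% of all genes. At an unadjusted edgeR p under 0.05 there were 1 member, Nr4a1, and 807 of the 16029 genes tested. DESeq2 called 1 of the 3 members, also Nr4a1, where it called 0.187% of all genes. Every Vulnerable rat lay above every Saline rat for 1 member, Nr4a1, and for 6.76% of all genes. In Non Vulnerable against Saline rats, 0 of the 3 members were called with edgeR (14.7% of all genes). There 1 member and 5244 of the 16029 genes had an unadjusted edgeR p under 0.05. DESeq2 called 0 of the 3 members and 3747 of the 16029 genes. Every Non Vulnerable rat lay above every Saline rat for 1 member, Nr4a1, and for 17.4% of all genes. With plain CPM, and with median-of-ratios scaled totals, it was none of the members. Since the family was chosen with these comparisons known, nothing is read from these counts.

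Within groups the members differed widely in how much rats varied. The SD of log2 CPM within groups, pooled over the 3 groups, was 0.22 for Nr4a1, 0.67 for Nr4a3 and 1.05 for Nr4a2, and its median over all genes was 0.18. A larger SD was found for 41.1% of genes in the case of Nr4a1, 5.85% for Nr4a3 and 1.63% for Nr4a2. Among genes within 2-fold of a member's own mean level, the median SD was 0.12 for the levels of Nr4a1 and Nr4a3 and 0.20 for that of Nr4a2. Among these genes, 16.9% varied more than Nr4a1, 0.734% more than Nr4a3 and 1.24% more than Nr4a2. Between its lowest and highest rat, Nr4a2 spanned 5.22-fold and Nr4a3 5.52-fold, against 3.20-fold for Nr4a1. For Nr4a2 that whole span lay within the Saline group.

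For Nr4a2 and Nr4a3 the spread between rats of every group was larger than that between technical replicates of any rat. For Nr4a1 this was so in the Vulnerable and Non Vulnerable groups. Over the 4 technical replicates the coefficient of variation (SD as a percentage of the mean) of Nr4a2 had a median of 9.32% over rats, where counting alone gives 10.8%. Between rats of a group it was 58.5% in Vulnerable, 60.8% in Non Vulnerable and 79.2% in Saline rats. For Nr4a3 the technical median was 3.71% and the values between rats were 25.6%, 34.9% and 56.7% in the same order of groups. For Nr4a1 they were 5.57%, and 16.8%, 18.8% and 7.94%. In Saline rats 1 and 2 the technical values of Nr4a1, 8.70% and 9.15%, exceeded the 7.94% between rats. The Saline rats thus varied least in Nr4a1 and most in Nr4a3 and Nr4a2.

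The library ranges of rats of the same group overlapped in 4 of 9 pairs for Nr4a1, and in 0 of 9 pairs each for Nr4a2 and Nr4a3. The overlapping pairs for Nr4a1 were Vulnerable rats 1 and 3 and all pairs of Saline rats. In CPM over the library total, the Nr4a3 libraries of Saline rat 3 ranged from 34.0 to 35.4 and those of Saline rat 1 from 9.26 to 9.54. The Nr4a2 libraries of Saline rat 3 ranged from 12.6 to 15.4 and those of Saline rat 2 from 2.26 to 2.98. For Nr4a1, the lowest library of any Vulnerable rat, at 56.4, lay above the highest of any Non Vulnerable rat, at 37.2. Technical replicates come from 1 rat and do not add to n. If they were runs of 1 preparation, their spread would hold no variation from library preparation, which was not tested.

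**Figure D3:**
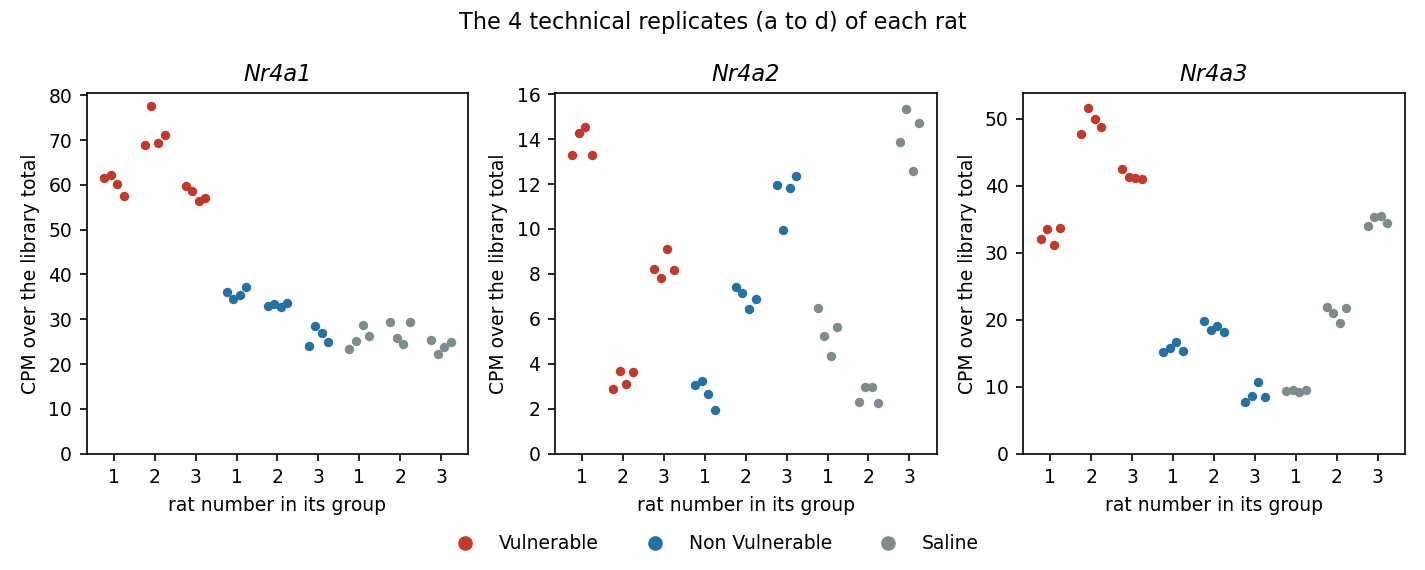
CPM over the library total (vertical axis, from 0) of each NR4A gene in the 36 libraries, 4 technical replicates for each of 9 rats (horizontal axis, rat number within its group; colours give the groups). Within groups, the libraries of different rats do not overlap for Nr4a2 and Nr4a3, as in Saline rats 1 and 3 for Nr4a3 (9.26 to 9.54 and 34.0 to 35.4), whereas for Nr4a1 those of the Saline rats, and of Vulnerable rats 1 and 3, overlap.

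Each level was set against that gene's own mean log2 CPM over the 9 rats. All 3 members lay on the same side of their means in 4 of 9 rats: above in Vulnerable rats 1 and 3, and below in Saline rats 1 and 2. The other rats were mixed. Vulnerable rat 2 was highest in both Nr4a1 (0.99 from its mean) and Nr4a3 (1.20), yet it stood at -0.90 in Nr4a2. Saline rat 3 was highest in Nr4a2 (1.08) and above the mean in Nr4a3 (0.60), but it was the lowest of all rats in Nr4a1 (-0.69). Non Vulnerable rat 3 stood at 0.91 in Nr4a2 and had the lowest Nr4a3 level of all rats (-1.25).

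Nr4a1 and Nr4a3 lay on the same side of their own means in 7 of 9 rats. The exceptions were Non Vulnerable rat 1 and Saline rat 3. Nr4a2 lay on the same side as Nr4a1 in 4 of 9 rats and as Nr4a3 in 6 of 9. Inside the groups, the order of rats differed between genes: among Vulnerable rats, rat 2 was highest in Nr4a1 and Nr4a3 and lowest in Nr4a2. Among Non Vulnerable rats, rat 3 was lowest in Nr4a1 and Nr4a3 and highest in Nr4a2. Among Saline rats, rat 3 was highest in Nr4a3 and Nr4a2 and lowest in Nr4a1.

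**Figure D4:**
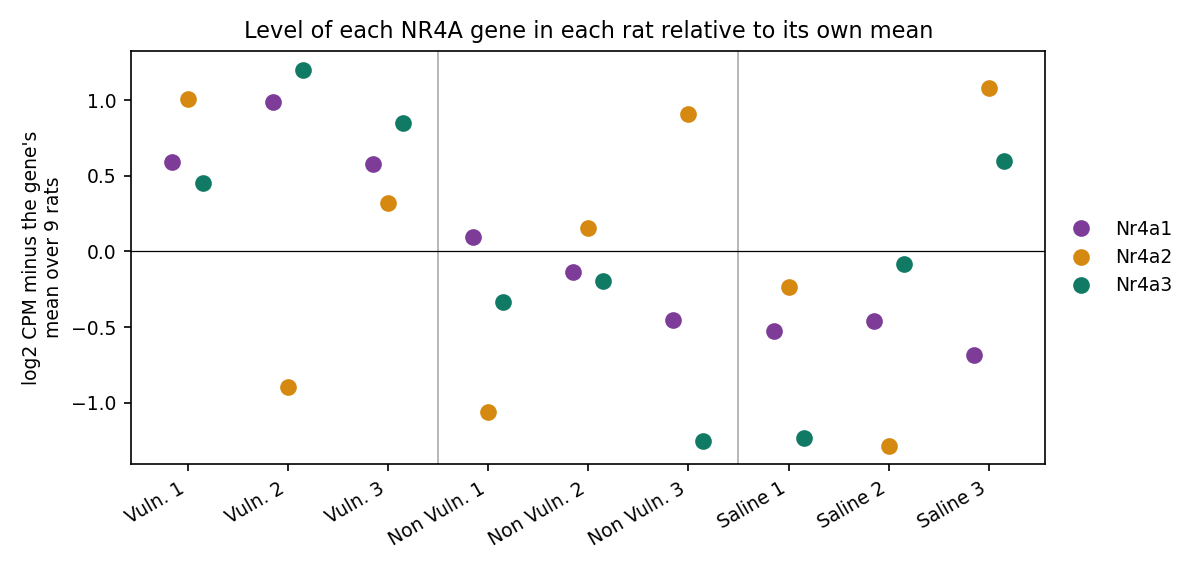
Log2 CPM of each NR4A gene minus that gene's mean over 9 rats (vertical axis) in each rat (horizontal axis), with grey lines between the groups. Nr4a1 and Nr4a3 are above their means in all 3 Vulnerable rats, while Nr4a2 runs from -0.90 to 1.01 in the same rats.

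The genes closest in pattern to each member were sought over all others tested, by the root mean square difference of mean-centred log2 CPM over the 9 rats. For Nr4a1 the smallest difference was 0.21, to ENSRNOG00000012307, a weakly expressed gene with 0.319 ± 0.00906 CPM in Vulnerable, 0.199 ± 0.048 in Non Vulnerable and 0.152 ± 0.0147 in Saline rats (SD, n = 3). For Nr4a3 it was 0.24, to ENSRNOG00000046667, which had 27.0 ± 8.77, 13.3 ± 4.2 and 15.8 ± 7.74 CPM in the same order. For Nr4a2 it was 0.33, to ENSRNOG00000015357, with 4.11 ± 2.54, 4.38 ± 2.14 and 3.69 ± 2.01 CPM. The tables used here pair none of these IDs with a name.

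By the same measure, the members differed in how near they stood to each other. Nr4a1 was number 416 of 16028 genes in closeness to Nr4a3, with a difference of 0.60 where the median gene had 0.86. Seen from Nr4a1, Nr4a3 was number 7350, near the median gene at 0.61. Nr4a2 was number 15520 from Nr4a1 (1.10) and number 15107 from Nr4a3 (1.20), farther than the median gene in both cases. The measure counts the size of a gene's swings as well as their shape, and genes with small swings are near to each other by construction.

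**Figure D5:**
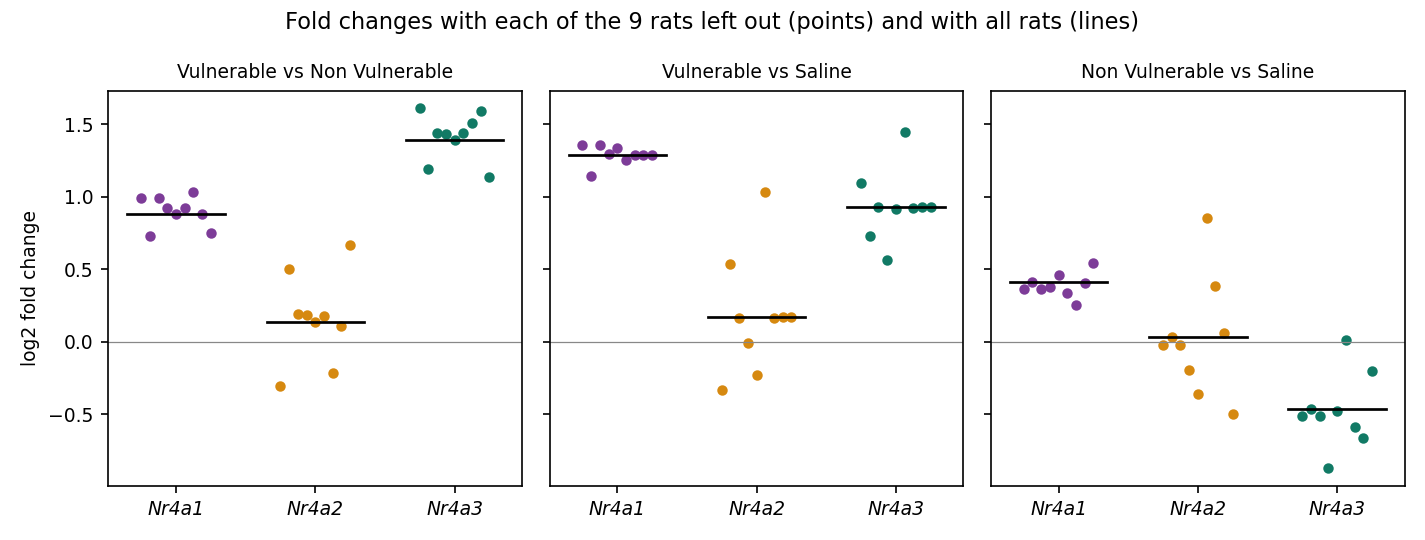
Log2 fold change of each NR4A gene (vertical axis) in the 3 comparisons, with each of the 9 rats left out in turn (points) and with all rats (lines). Nr4a1 stays between 1.143 and 1.36 for Vulnerable against Saline rats, whereas Nr4a2 lies on both sides of 0 in each comparison.

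Leaving out rats left the direction of Nr4a1 unchanged in all 9 fits of each comparison. Omitting a rat of the group not compared keeps the compared rats, so those fits add little on the direction of Nr4a1. The spread is fitted over all rats kept, so calls can still change in them. Without Saline rat 2 the Vulnerable against Non Vulnerable call of Nr4a3 ended at 1.39, with an SE of 0.466 instead of 0.437. The log2 fold change of Nr4a1 lay between 0.73 and 1.03 for Vulnerable against Non Vulnerable rats and between 1.143 and 1.36 for Vulnerable against Saline rats. For Non Vulnerable against Saline rats it lay between 0.25 and 0.54. Nr4a3 lay between 1.13 and 1.61 for Vulnerable against Non Vulnerable rats and between 0.57 and 1.45 for Vulnerable against Saline rats. The sign of Nr4a2 changed in each comparison with the rats kept.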

How the data were processed

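Total RNA of 9 rats was sequenced as polyA-selected, strand-specific libraries, 4 technical replicates per rat, per the labels' protocols. Each library has 1 table deposited by the authors, with raw counts of reads (whole numbers, no normalization) by Ensembl gene ID. STAR, HTSeq 0.5.3 and bcl2fastq 2.17.1.14 were used, per the submitters' processing notes. Build, annotation and strand option: not given in the sources used here. Reads shared with a gene that overlaps a member are therefore uncertain.

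Counts were summed per rat, filtered with filterByExpr, TMM-scaled and fitted in the quasi-likelihood model (glmQLFit, robust) of edgeR 4.0.16 (R 4.3.3) over all 9 rats, 1 coefficient per group, leaving 6 residual degrees of freedom. The Benjamini-Hochberg adjustment ran over 16029 genes. Called means an adjusted p under 0.05. SEs came from the F statistic, and a prior count of 2 entered log2 CPM. DESeq2 1.42.0, median-of-ratios scaling, no low-count filter, fits of only the compared groups, a replicate block on rat number and the omission of single rats were alternatives. The procedure was also run on counts simulated from the fitted means and spreads, with known folds in a minority of genes. No result here rests on that simulation. Rats are taken as separate animals from the rat numbers in the labels, and p-values set group differences against the spread between these rats. Each group had 3 rats, so no outlier check was made. CPM over plain totals, median-of-ratios scaled totals and single technical replicates were the alternatives for levels.

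Members, lists and tests were chosen with earlier results of these data known. Named genes were the 3 members and, per member, the tested genes closest in pattern over the 9 rats. Since the IDs have no names, the 2 closest per member were kept. The closest is printed, and for Nr4a1 also the second. Another 12 lists of activity-regulated genes, regulators, partners, other nuclear receptors and cell type markers (177 symbols) could not be used, because the RefSeq gene table of assembly GRCr8 paired 0 IDs with a symbol.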

Additional observations from a re-analysis of the deposited data

How the results depend on the processing

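The log2 fold change of Nr4a3 in Vulnerable against Non Vulnerable rats lost its call without the low-count filter (1.40) and with the replicate block (1.33). Under the block 5160 genes were called there, and no other call of a member changed. Deviations from group means of same-numbered rats had r over genes of 0.19, -0.12 and 0.11 for Vulnerable and Non Vulnerable rats 1 to 3. The values were -0.14, 0.02 and 0.07 for Vulnerable and Saline rats, and 0.08, 0.01 and 0.05 for Saline and Non Vulnerable rats. With 3 rats per group, these values cannot decide whether the numbers pair the rats. DESeq2 called Nr4a1 in Vulnerable against Saline rats (1.31), 30 genes in that comparison and 3747 in Non Vulnerable against Saline rats, where a fit of only those groups called 1164. With 1 rat left out, 2798 to 5841 genes were called in Vulnerable against Non Vulnerable rats (2798 and 3035 on omission of Non Vulnerable rats 2 and 3, 2820 and 3050 on omission of Vulnerable rats 2 and 3). For Non Vulnerable against Saline rats the count ran from 251 (without Saline rat 2) to 3615 (without Non Vulnerable rat 1), with 490, 905, 952 and 1334 without Non Vulnerable rat 2, Non Vulnerable rat 3, Saline rat 1 and Vulnerable rat 3. For Vulnerable against Saline rats edgeR called 0 in all 9. The log2 fold change of Nr4a2 then ran from -0.31 to 0.67 (Vulnerable against Non Vulnerable), -0.33 to 1.03 (Vulnerable against Saline) and -0.50 to 0.85 (Non Vulnerable against Saline). That of Nr4a3 ran from 1.13 to 1.61, 0.57 to 1.45 and -0.87 to 0.01. The cause of these changes was not tested. Apart from omitted rats, the settings gave 42 fold changes of members with the same direction and call. All 54 alternative group means stayed within 1 SD between the rats of the group. That margin is wide, up to 79.2% of the mean, and single technical replicates are parts of the sums, so this shows little. Counting alone gave its largest error for Nr4a2, up to 9.62% per rat, against coefficients of variation between rats of 58.5% to 79.2%.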
